A study of Mus musculus with 6 samples.

Results

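Expression of the cytosolic and mitochondrial heat shock chaperones was examined in hippocampal RNA-seq libraries from mice injected with a control virus or with a virus against L-DL, the long form of the RNA-binding protein hnRNP D-like, which resides in nuclear speckles. The set holds 10 genes taken by name from the 52550 genes in the count table: the HSP70 genes Hspa1a, Hspa1b and Hspa8, the HSP110 gene Hsph1, the J-domain gene Dnajb1, the HSP90 genes Hsp90aa1 and Hsp90ab1, the mitochondrial chaperonin genes Hspd1 and Hspe1, and Hsf1, which encodes the transcription factor behind their induction by stress. All 10 passed the filter on low values (10 counts or more in 3 libraries or more), which left 17621 genes for the test. Their splicing events were taken by gene symbol from the junction count table of the same study.

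Each group comprised 3 libraries. The control libraries, labelled WT, came from male C57BL/6 J mice given an adeno-associated virus (AAV) with control shRNA, and the other libraries, labelled hnRNP DL KD and called L-DL KD here, from mice given AAV with L-DL shRNA. Another label field writes the second group as hnRNP DL-/-, but the methods describe knockdown by virus. Virus was placed in the CA1 field of both hippocampi at 8 weeks of age. The L-DL virus carried several shRNAs in tandem behind H1 promoters, which are active in most cell types, beside a zsGreen marker driven by the neuronal CamkIIα promoter. According to the study's methods the control virus was given at a higher titre than the L-DL virus. RNA came from hippocampal tissue, in which injected and non-injected cells can be mixed, and the study does not say which part was taken. The labels do not say whether each library is a separate mouse, so that the p-values measure only the spread between these libraries.

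Chaperones bind unfolded stretches of protein and help them fold. HSP70 proteins do so in cycles of ATP use that J-domain proteins start and HSP110 proteins reset by nucleotide exchange, HSP90 takes over clients such as kinases and steroid receptors at a late stage of folding, and HSP60 (Hspd1) with its lid HSP10 (Hspe1) forms the folding chamber of the mitochondrial matrix. Constitutive members (Hspa8, Hsp90ab1) are abundant in neurons at all times, whereas Hspa1a and Hspa1b are kept low and are induced by stress. Induction runs through HSF1, a protein that is present before stress, forms trimers when chaperones are occupied, and binds heat shock elements, which are alternating repeats of GAA and TTC in promoters of its targets.

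Promoters of these genes are shown where the RefSeq table (GRCm38.p6, 250 bases before to 50 after the start) held them, which was the case for 6 of 10. Since HSF1 is behind the induction of these genes by stress, such repeats were likely to be found. Whether they relate to the changes below was not tested. No window was given for Hspa8, Hsp90aa1, Hsp90ab1 or Hsf1. Windows were searched on both strands for a pair of repeats (GAANNTTC or TTCNNGAA, N being any base) and for a run of 3 repeats at the same spacing, in which pairs overlap. A pair occurred in 15.06% of all 32851 promoter windows and a run of 3 in 0.6%. At least 1 pair was present in a window of 5 of these 6 members and a run of 3 in 3 of them. A member with 2 windows (Hsph1, Dnajb1 and Hspd1) needed a match in only 1, whereas the shares are of single windows. Some of these windows are near copies or overlap, as given below, so the members are not independent. The 3 windows below carry the different arrangements found, with the repeats in capitals, 5′ to 3′ on the strand of the gene.
Hspa1a, chr17:34972107-34972406, minus strand: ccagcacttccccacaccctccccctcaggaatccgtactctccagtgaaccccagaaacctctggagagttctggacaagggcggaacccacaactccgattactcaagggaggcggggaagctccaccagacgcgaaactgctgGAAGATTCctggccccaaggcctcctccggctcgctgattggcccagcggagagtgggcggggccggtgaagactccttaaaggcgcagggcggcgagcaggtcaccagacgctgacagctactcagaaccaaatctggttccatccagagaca
Hsph1, chr5:149636287-149636586, minus strand: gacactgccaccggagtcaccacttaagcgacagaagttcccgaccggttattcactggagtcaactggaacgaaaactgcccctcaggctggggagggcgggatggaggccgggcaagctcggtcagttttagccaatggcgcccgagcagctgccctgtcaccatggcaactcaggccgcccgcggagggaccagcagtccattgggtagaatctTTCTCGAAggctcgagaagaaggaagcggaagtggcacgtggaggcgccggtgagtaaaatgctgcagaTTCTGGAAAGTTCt
Hspe1, chr1:55087898-55088197, plus strand: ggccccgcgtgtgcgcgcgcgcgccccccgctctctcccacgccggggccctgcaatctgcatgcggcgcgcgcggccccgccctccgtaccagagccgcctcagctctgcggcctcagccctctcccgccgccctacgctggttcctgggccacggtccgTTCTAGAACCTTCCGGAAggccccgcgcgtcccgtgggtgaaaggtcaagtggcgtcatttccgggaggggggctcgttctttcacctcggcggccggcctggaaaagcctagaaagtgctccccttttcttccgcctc
In the Hspa1a window a single pair, GAAGATTC, began 104 bases before the start. The Hspa1b window (chr17:34959189-34959488, minus strand) differed from it at only 4 of 300 positions and held the same pair at the same place. In the Hsph1 window TTCTCGAA began 33 bases before the start, and a run of 3 repeats lay behind the start. The Hspe1 window held 4 repeats in a row, TTCTAGAACCTTCCGGAA, from 89 bases before the start. Hspd1 and Hspe1 lie head to head, and one of the Hspd1 windows shared 285 bases with that of Hspe1, so that this run of repeats is the same piece of DNA in both. Neither of the 2 Dnajb1 windows held these letters. A match is a description of the sequence and not a measured site of binding.

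The libraries held between 16052529 and 17913064 counts, with no group apart in depth. The targeted gene, Hnrnpdl, was not lower at the gene level, with 177 ± 6.42 CPM (counts scaled to the library's total times its TMM factor, which adjusts for composition; SD, n = 3) in controls and 180 ± 33.9 in libraries labelled L-DL KD (log2 fold change 0.03, SE 0.12, adjusted p = 0.898 by edgeR's quasi-likelihood test). That count sums all isoforms of the gene and does not isolate L-DL; the groups are therefore named by their labels. The libraries differed widely: 15.0% of the genes tested were lower and 15.6% higher at an adjusted p under 0.05. Cell type markers moved with the labels. All 12 microglial markers were higher, their summed level running from 1440 to 1799 CPM in controls and from 3018 to 3931 in libraries labelled L-DL KD, and 5 of 8 endothelial markers were higher. Of 12 neuronal markers 9 were lower and 2 higher, with sums of 6361 to 6746 CPM against 4470 to 5235, and of 8 tested CA1 pyramidal markers 4 were lower and 1 higher. Of 8 dentate granule markers 3 were lower and 1 higher. Of 9 astrocyte markers 4 were lower and 2 higher, with sums of 7952 to 8093 CPM against 6218 to 7299, and of 9 oligodendrocyte markers 3 were higher and 0 lower, with sums that overlapped. Of 14 immediate early genes, which neuronal activity induces, 7 were lower and 2 higher, with sums of 1158 to 1430 CPM against 648 to 899. Neuronal and CA1 pyramidal markers were detected in every library of this hippocampal tissue. In bulk tissue, fewer cells of a type and less RNA per cell cannot be told apart, and the part of these shifts in the chaperone values that follow was not tested.

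Inducible HSP70 and HSP90 genes and the constitutive Hspa8 had lower levels in the libraries with the L-DL KD label, while Hsf1 itself differed by less than the spread between libraries. Of the 10 genes, 7 were called lower (Hspa1a, Hspa1b, Dnajb1, Hsp90aa1, Hspa8, Hsph1 and Hspe1) and 0 higher, against the 15.0% and 15.6% of all genes tested. The 3 others, Hsp90ab1, Hspd1 and Hsf1, did not pass. The set was chosen with earlier results of these data known, so its share beside that of all genes is a description and not a test. The groups did not overlap for 8 of 10 members, all with lower values in the libraries labelled L-DL KD, an arrangement found in 23.4% of all genes tested. The median log2 fold change of the members was -0.52, and that of all genes tested was 0.0059. Together the 10 genes took 0.591 ± 0.0379% of all counts in controls and 0.446 ± 0.0418% in libraries labelled L-DL KD (SD, n = 3).

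**Figure D1:**
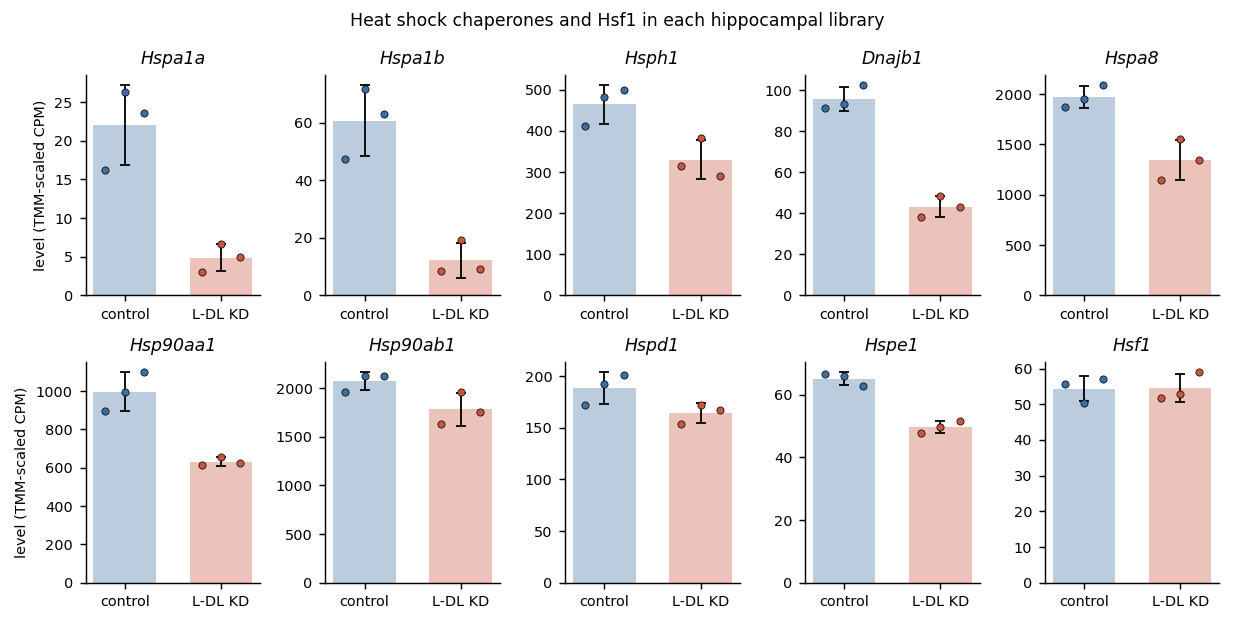
Level of each member (TMM-scaled CPM, linear axes from 0) in the 3 control libraries (blue) and the 3 libraries labelled L-DL KD (red). Bars show the mean and error bars the SD, and each point is 1 library. Hspa1a, Hspa1b and Dnajb1 show the widest gaps between the groups, while the points of Hspd1 and Hsf1 overlap.

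The stress-inducible HSP70 genes showed the lowest levels relative to control. Hspa1a (chr17:34969190-34972156, a gene of 1 exon) stood at 16.2, 26.2 and 23.6 CPM in control libraries 1 to 3 and at 3.09, 6.62 and 4.95 CPM in libraries 1 to 3 labelled L-DL KD. Every library labelled L-DL KD was below every control, by 4.50-fold on the means (22.0 ± 5.19 against 4.88 ± 1.77 CPM, SD, n = 3). On the log2 scale the change was -2.17 (SE 0.29, adjusted p = 0.00132, edgeR). Hspa1b, its neighbour on the same strand (chr17:34956436-34959238), encodes an almost identical protein. Its level was 47.4, 71.8 and 63.2 CPM in controls and 8.37, 19.2 and 9.06 CPM in the libraries labelled L-DL KD. Again the groups were far apart, with a 4.97-fold lower mean (60.8 ± 12.4 against 12.2 ± 6.08 CPM) and a log2 fold change of -2.31 (SE 0.31, adjusted p = 0.00142). In raw counts the Hspa1b values were 769, 1221 and 995 against 152, 343 and 152, so that counting error is small beside the spread between libraries. Of all 17621 genes tested, only 37 had a lower log2 fold change than Hspa1b and 50 a lower one than Hspa1a. These copies share sequence: 45.95% of the 150 nt windows of the Hspa1a transcript and 40.47% of those of Hspa1b also occur in another gene (each other, Hspa1l, Gm10501 or Gm20481). A read there cannot be placed in one copy by its own sequence. Whether the other read of its pair placed it was not tested. Exons of Hspa1a also overlap Gm20481. The summed level of Hspa1a and Hspa1b, which placing a read in the wrong one of these 2 copies leaves as it is, was 82.8 ± 17.6 CPM in controls and 17.1 ± 7.68 CPM in libraries labelled L-DL KD, or 4.84-fold lower. Reads that counting may have left out, or placed in Hspa1l, Gm10501 or Gm20481, are not restored by this sum.

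Dnajb1 encodes HSP40, the J-domain partner that starts the HSP70 cycle (chr8:83608193-83612653). Its values were 91.2, 93.3 and 102 CPM in controls and 38.1, 48.2 and 43.2 CPM in libraries labelled L-DL KD. The libraries of each group lay close together and the groups were well apart, the mean being 2.22-fold lower (95.7 ± 6.0 against 43.2 ± 5.05 CPM). The log2 fold change of -1.15 (SE 0.10, adjusted p = 0.000244) had the lowest adjusted p of the set, and 511 genes of all those tested had a lower fold change. None of its transcript windows occurred in another gene.

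Hspa8 encodes HSC70, the constitutive HSP70 that among other tasks strips clathrin from synaptic vesicles (chr9:40800984-40810087). It stood at 1874, 1954 and 2090 CPM in controls and at 1149, 1550 and 1342 CPM in the libraries labelled L-DL KD. All control libraries were higher than all others, although the libraries labelled L-DL KD were spread over a wide range. On the log2 scale the change was -0.55 (SE 0.11, adjusted p = 0.00835), which leaves 68.3% of the control mean. Hspa8 has processed pseudogenes, with 22.4% of its windows found in another gene, and its exons overlap 3 small nucleolar RNA genes.

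Hsph1 encodes HSP105, an HSP110 protein that exchanges nucleotide on HSP70 (chr5:149614287-149636376). Levels of 411, 482 and 500 CPM in controls compared with 314, 382 and 291 CPM. The groups were apart by a narrow margin, since the lowest control was near the highest of the other group. The log2 fold change was -0.50 (SE 0.12, adjusted p = 0.015). This call was lost when control library 2 (adjusted p = 0.0567) or control library 3 (0.0621) was left out, with the fold change between -0.61 and -0.41 over all 6 such fits.

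Of the cytosolic HSP90 genes, the inducible one passed the test. Hsp90aa1, the HSP90α gene (chr12:110690605-110702728), was at 893, 995 and 1097 CPM in controls and at 616, 657 and 624 CPM in libraries labelled L-DL KD. The latter were tightly grouped and below each control (995 ± 102 against 632 ± 21.8 CPM), with a log2 fold change of -0.65 (SE 0.09, adjusted p = 0.00138). Pseudogenes share 36.17% of its windows. Hsp90ab1, the constitutive HSP90β gene (chr17:45567775-45573271), was at 1962, 2126 and 2122 CPM against 1630, 1960 and 1756 CPM. The highest library labelled L-DL KD came just under the lowest control. Its log2 fold change of -0.22 (95% interval -0.42 to -0.01) did not pass after adjustment (adjusted p = 0.0985). Within each library, where scaling plays no part, Hsp90aa1 stood at 0.455, 0.468 and 0.517 of Hsp90ab1 in controls and at 0.378, 0.335 and 0.355 in libraries labelled L-DL KD, with no overlap. This ratio was not tested.

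Of the mitochondrial pair, the gene of the lid passed the test and that of the chamber did not. Hspe1, the HSP10 gene (chr1:55088132-55091307), had 66.4, 66.0 and 62.8 CPM in controls and 47.7, 49.7 and 51.5 CPM in libraries labelled L-DL KD. Both groups were tight and clearly apart (65.1 ± 1.99 against 49.6 ± 1.89 CPM), with a log2 fold change of -0.39 (SE 0.07, adjusted p = 0.00407). Hspd1, the HSP60 gene (chr1:55077835-55088243), had 172, 193 and 201 CPM in controls and 154, 172 and 167 CPM in libraries labelled L-DL KD. Library 2 labelled L-DL KD slightly exceeded control library 1, so the groups overlapped, and the log2 fold change of -0.20 (95% interval -0.39 to -0.01) did not pass (adjusted p = 0.102). The annotated genes overlap by 112 bases on opposite strands at their starts, where reads cannot be assigned unless strand was used in counting, and 18.56% of the Hspd1 windows also occur in a pseudogene. The Hspd1 to Hspe1 ratio within a library was 2.59, 2.92 and 3.21 in controls and 3.22, 3.47 and 3.25 in libraries labelled L-DL KD, the lowest of which was just above the highest control. Whether Hspd1 and Hspe1 differed from each other in their change was not tested.

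Hsf1 (chr15:76477422-76501913), whose product is regulated mainly as a protein, had 55.6, 50.4 and 57.0 CPM in controls and 51.6, 53.0 and 58.9 CPM in libraries labelled L-DL KD. The groups were interleaved. The log2 fold change was 0.01 with a 95% interval of -0.19 to 0.20 (adjusted p = 0.971), so that changes of its mRNA beyond that interval were not seen, and its protein was not measured here.

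The same libraries tended to stand at the edge of their group. Control library 1 had the lowest control value in 8 of the 9 chaperone genes, and library 2 labelled L-DL KD had the highest value of its group in 8 of 9, while the order of the other libraries varied between genes. The spread between libraries was widest, relative to the mean, for the inducible HSP70 genes: the coefficient of variation in libraries labelled L-DL KD was 49.8% for Hspa1b and 36.2% for Hspa1a, and 3.44% for Hsp90aa1.

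Per kilobase of exon, Hsp90ab1 had the highest level in control libraries with 690 CPM per kb, followed by Hspa8 with 459 and Hsp90aa1 with 253. Hspd1 (71.4 CPM per kb) and Hsph1 (63.9) came next and overlapped in their libraries, and Hspe1 (44.2) and Dnajb1 (29.9) followed. Hspa1b stood at 21.7 CPM per kb, and Hsf1 (7.65) and Hspa1a (7.42) overlapped at the low end. In libraries labelled L-DL KD the order was the same for the first 7 genes, but Hsf1 (7.68 CPM per kb) then lay above Hspa1b (4.36) and Hspa1a (1.65), with no overlap between neighbours. This order depends on the length used. Merged exons were much longer than the longest transcript for Hsph1 (7266 against 4764 nt) and Hsf1 (7099 against 3133 nt), but not for Hspd1 (2642 against 2423 nt). Levels of Hspa1a and Hspa1b were also not corrected for their windows that occur in other genes. The summed inducible HSP70 genes were at 0.0339, 0.0502 and 0.0415 of the Hspa8 level in control libraries and at 0.00998, 0.0167 and 0.0104 in the others, on the CPM scale without correction for length. This ratio within the library had a mean in libraries labelled L-DL KD of 0.295 times the control mean.

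**Figure D2:**
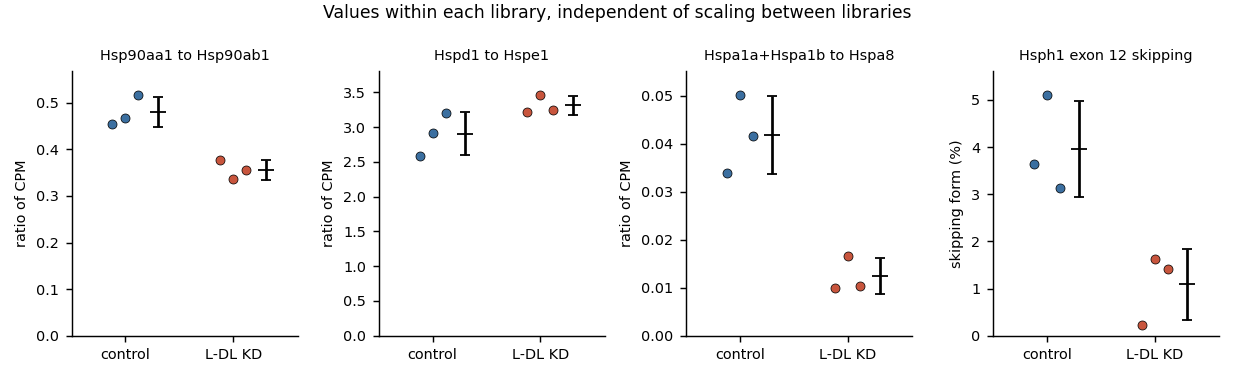
Ratios of CPM between members within each library and, at the right, the share of the Hsph1 form that skips the 132 nt exon (%, linear axes from 0). For this share the junction reads of each form were divided by its effective length. Points are single libraries (blue, control; red, labelled L-DL KD), with mean and SD beside them. The groups did not overlap in any of the 4 panels, and of these values the skipping share alone was tested, without passing after adjustment.

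Other genes of the chaperone network were described by lists that group them by role, also chosen with earlier results of these data known. Of 96 such genes 90 were tested, and 24 were lower (26.7%) and 7 higher (7.78%), with a median log2 fold change of -0.07, against 15.0% and 15.6% of all genes tested. 1 of the 7, Hspb3, passed the filter on low values only through the group where it was high, and without it 6 of 89 were higher (6.74%). Left-out libraries moved the lower genes between 18 and 25 and the higher ones between 4 (without library 2 labelled L-DL KD) and 13 (without library 1 labelled L-DL KD). Most of the lower genes were J-domain genes or cofactors of HSP70 and HSP90.

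Of 15 J-domain genes 7 were lower (46.7%) and 1 was higher (median -0.29). Dnajc5 encodes the cysteine string protein of synaptic vesicles, and its level was 377 ± 14.3 CPM in controls and 198 ± 13.7 CPM in libraries labelled L-DL KD (log2 fold change -0.92, SE 0.07, adjusted p = 0.000194). Dnajc6, or auxilin, which brings Hspa8 to clathrin coats, fell from 255 ± 9.40 to 141 ± 24.2 CPM (-0.85). Dnaja1, a cytosolic HSP40, fell by 0.55 on the log2 scale. Dnajc13, an endosomal protein, rose by 0.39.

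Of the 15 HSP90 co-chaperone genes tested 8 were lower (53.3%) and 1 was higher (median -0.24). Stip1 encodes HOP, the bridge between HSP70 and HSP90, and went from 213 ± 19.6 to 127 ± 11.4 CPM (log2 fold change -0.74, SE 0.09, adjusted p = 0.00113). Chordc1 fell by 0.67, and Ahsa1, the activator of the HSP90 ATPase, by 0.59 on the log2 scale. Cdc37, which loads kinases on HSP90, rose by 0.38, from 137 ± 2.76 to 179 ± 2.85 CPM.

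Of 16 other HSP70 family genes and cofactors 5 were lower (31.2%) and 0 higher, with a median of -0.06. The lower count went to 2 without control library 1, and to 3 without control library 2 or libraries 2 or 3 labelled L-DL KD, and 3 were higher without library 1 labelled L-DL KD. Hspa4l, a second HSP110 gene, went from 190 ± 20.6 to 79.8 ± 19.1 CPM (log2 fold change -1.25, SE 0.17, adjusted p = 0.00129), and Hspbp1, a nucleotide exchange factor, fell by 0.52. The Hspbp1 call was lost without control library 1 (adjusted p = 0.0511) or 2 (0.0503). The close relative Hspa4 had a log2 fold change of -0.08 (adjusted p = 0.416). Bag3, an HSP70 co-chaperone of selective autophagy and a known HSF1 target, had 27.8, 35.2 and 31.4 CPM in controls and 28.2, 39.4 and 55.3 CPM in libraries labelled L-DL KD, which overlapped (0.38, adjusted p = 0.236).

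Of 8 listed genes of small heat shock proteins, ATP-independent holdases, 5 were tested, and 4 are read here without Hspb3. Of these 4, Hspb1 and Hspb8 were higher and 0 were lower, against 15.6% and 15.0% of all genes tested. The lower count was 1 without library 1 labelled L-DL KD. Hspb1, the HSP27 gene, had 30.3, 37.3 and 35.6 CPM in controls and 148, 160 and 173 CPM in libraries labelled L-DL KD. This is a 4.66-fold higher mean with no overlap (log2 fold change 2.22, SE 0.10, adjusted p = 6.45e-05). Hspb8 rose from 37.2 ± 1.69 to 57.0 ± 2.76 CPM (0.62). Hspb3 was at the edge of detection with 0, 4 and 3 counts in controls and 25, 18 and 10 in the others. It entered the test only through the latter, so its test is not read here. Cryab, the αB-crystallin gene, was at 168 ± 5.23 and 173 ± 17.0 CPM (0.04, adjusted p = 0.727). Hspb6 was at 10.2 ± 1.49 CPM in controls and 7.37 ± 2.23 CPM in libraries labelled L-DL KD, which overlapped (-0.465, adjusted p = 0.171). Hspb1 and Hspb8 are expressed in glia and vessels as well as neurons, and the microglial and endothelial lists given above moved in the same direction; the part of these cells in the Hspb1 value was not tested.

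Mitochondrial chaperones and proteases other than Hspd1 and Hspe1 gave 2 lower and 0 higher genes of 14 (median 0.015), a share of 14.3% beside the 15.0% of all genes tested. The higher count was 2 without library 1 labelled L-DL KD and 1 under library size scaling. Dnaja3, the J-domain partner of mitochondrial HSP70, fell by 0.53 on the log2 scale, and Lonp1, a matrix protease, had a log2 fold change of -0.22 (adjusted p = 0.0455), a call lost in 11 of 12 alternatives, which leaves 1 lower gene. The mitochondrial HSP70 gene Hspa9 had 223 ± 1.87 CPM in controls and 262 ± 28.3 in libraries labelled L-DL KD (0.23, adjusted p = 0.0749), and the mitochondrial HSP90 gene Trap1 was at 67.3 ± 1.54 and 68.0 ± 1.78 CPM. Of 14 cytosolic chaperonin and prefoldin genes, which fold actin and tubulin, 1 was lower (Pfdn4, -0.90) and 1 higher (Pfdn1, 0.38). Pfdn1 lost its call without control library 2 (adjusted p = 0.0517) or 3 (0.0573) or library 2 labelled L-DL KD (0.05), and 3 genes of this list were higher without library 1 labelled L-DL KD. The Pfdn4 call held in each of the 12 alternatives. Among 4 tested heat shock factors and regulators, Hsbp1, which binds HSF1 trimers, fell by 0.40, and Hsf2 had a log2 fold change of 0.06 (adjusted p = 0.73).

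A list of 22 HSF1 targets outside the set shares genes with the lists above. It gave 7 lower genes (31.8%, beside 15.0% of all genes tested) and 3 higher (13.6%, beside 15.6%), with a median of -0.08. Over the alternatives the lower count stayed at 7, and the higher count ran from 2 to 5 (without library 1 labelled L-DL KD). The lower ones were co-chaperones and HSP70 relatives such as Stip1, Hspa4l and Dnaja1, and the higher ones included Hspb1 and Hspb8.

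**Figure D3:**
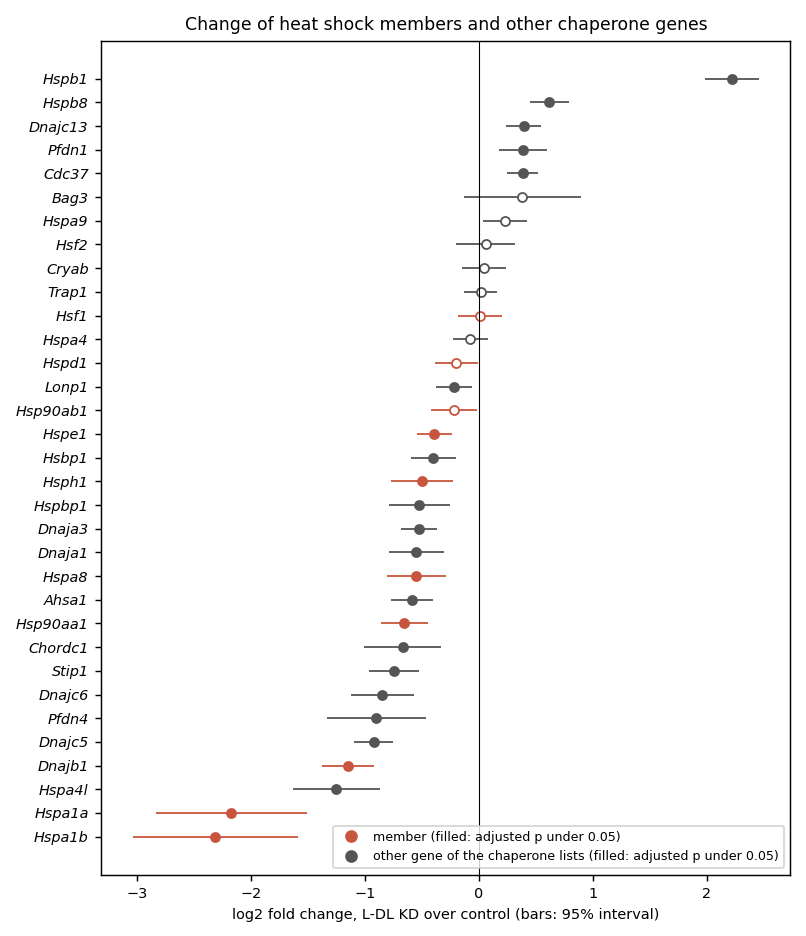
Log2 fold change (libraries labelled L-DL KD over control) of the 10 members (red) and of named genes from the other chaperone lists (grey), with 95% intervals from edgeR. Filled points passed an adjusted p under 0.05. Hspa1b and Hspa1a lie at the lower end and Hspb1 at the upper end, and Hspb3 is not drawn.

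**Figure D4:**
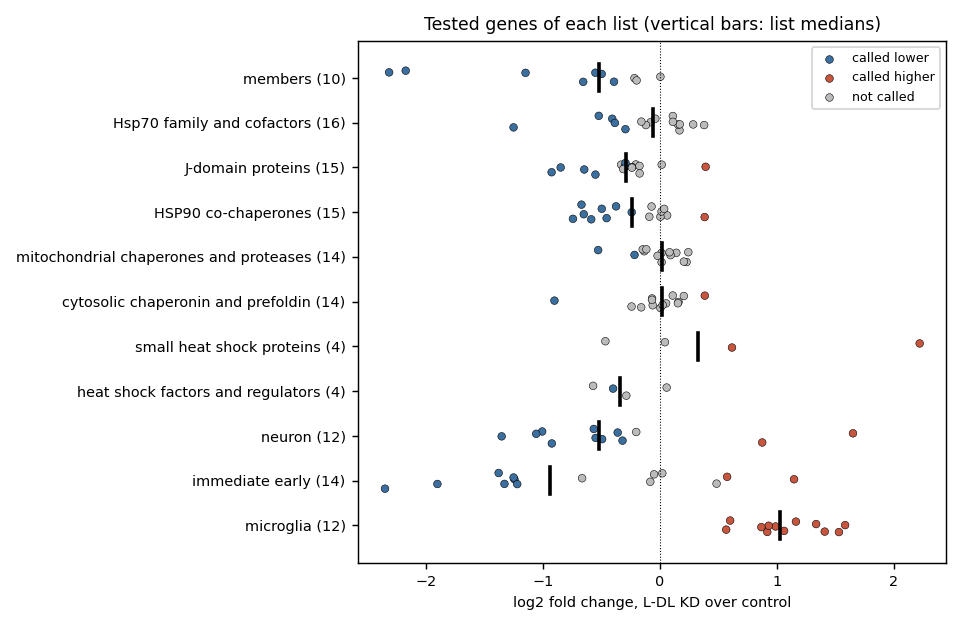
Log2 fold change of each tested gene in the chaperone lists and in the neuronal, immediate early and microglial lists, with the number drawn in brackets (Hspb3 left out) and the list median as a vertical bar. Blue points were called lower, red points higher, and grey points did not pass. The members' median is -0.52, while microglial markers are all above 0.

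Splicing was the study's main readout, and 26 events were listed in the splicing data for 5 of the members (12 for Hsf1, 7 for Hspa8, 3 for Hsp90ab1, 2 each for Hspd1 and Hsph1). Of these 15 had enough junction reads in all, and enough of each form, to be tested. With edgeR 0 of 15 passed an adjusted p under 0.05, against 0.255% of all 18829 events tested, and 1 had an unadjusted p below that value. A limma fit also gave 0 calls and 1 event at that unadjusted level. Among these 15, the percent spliced in (PSI, here from 0 to 1) changed by at most 0.0576.

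The event with the lowest p was the alternative exon of Hsph1, 132 nt or 44 whole codons long, which tells the forms of HSP105 apart: HSP105α includes it, and HSP105β, the form known to be induced by heat, lacks it. In the GRCm38 annotation 3 transcripts hold it, in one of which it was numbered as exon 12, and 1 annotated transcript skips it. Its sequence is shown because it is what the junction reads distinguish.
Hsph1 exon 12, chr5:149623465-149623596, minus strand: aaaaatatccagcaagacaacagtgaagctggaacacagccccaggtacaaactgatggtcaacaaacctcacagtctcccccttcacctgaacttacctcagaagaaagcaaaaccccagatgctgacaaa
Reads joining the flanking exons numbered 17, 29 and 18 in control libraries and 1, 8 and 5 in libraries labelled L-DL KD. Inclusion reads numbered 845, 1011 and 1044 against 824, 906 and 653. With each form divided by its effective length, the skipping form made up 3.64, 5.11 and 3.14% in controls and 0.23, 1.63 and 1.42% in libraries labelled L-DL KD. The groups did not overlap (3.96 ± 1.02% against 1.09 ± 0.755%, SD, n = 3). The log2 odds of inclusion differed by 1.87 (SE 0.52, edgeR's unadjusted p = 0.00366), which did not pass over all events (adjusted p = 0.157, from 0.161 to 0.40 under the alternatives). The skipping form rests on 64 reads in all controls and 14 in all libraries labelled L-DL KD.

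Hsf1 gave 6 tested events. For its exon at chr15:76497619-76497694 the skipping reads were 0, 2 and 2 in controls and 3, 4 and 8 in libraries labelled L-DL KD, with PSI values of 1.0, 0.946 and 0.959 against 0.938, 0.926 and 0.869. These few reads gave an adjusted p of 0.456 (edgeR). The 3 tested events of Hspa8 and the 3 of Hsp90ab1 had mean PSI within 0.01 of 0 or 1 in both groups. The tested event of Hspd1 (adjusted p = 0.733, edgeR) and the other exon of Hsph1 (0.952) did not pass either.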

How the data were processed

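Counts and splicing tables were analysed for 3 control libraries and 3 libraries labelled L-DL KD, grouped by their labels. The authors sequenced poly(A) RNA as 150 nt read pairs and aligned it to the mouse genome GRCm38/mm10; the submitters' processing notes name HISAT2 2.1.0, HTSeq 0.6.1 and Bowtie 1.1.2. Whether the counting used strand is not given in the sources used here. The files as deposited by the authors hold unnormalized counts of reads for each Ensembl gene and an rMATS table of inclusion and skipping junction counts per event; its columns of p-values, FDR and inclusion levels hold the authors' own comparison and were not used. The first sample of that table was read as L-DL KD, from the direction in which the study defines its difference, and its values carry no replicate numbers.

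Gene symbols came from the annotation of the same build, and 52403 of 52550 gene IDs had one. Genes reaching 10 counts in 3 or more libraries were fitted with edgeR 4.0.16 (R 4.3.3; TMM scaling, quasi-likelihood test, Benjamini-Hochberg over 17621 genes, threshold 0.05). Levels are TMM-scaled CPM, per kb of merged exons where genes are compared. Events with a mean of at least 20 junction counts per library and at least 1 for each form were fitted with edgeR on both counts, with library effects. Scripts were tested on simulated data. Alternatives used DESeq2 1.42.0, limma 3.58.1 (on log2 values with a pseudocount of 0.5 for events), library size scaling, other filters, a replicate block and each library left out.

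The members and gene lists were chosen with earlier results of these data known. The named genes were the members, Hnrnpdl, 12 fixed genes, and per list the 2 largest rises and 2 largest falls among genes called without overlap of the groups. Depth was 16052529 to 17913064 counts per library. The 95% intervals are those of the edgeR fit and include the spread between libraries.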

Additional observations from a re-analysis of the deposited data

How the results depend on the processing

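The calls on 9 of the 10 members were the same in all 12 alternatives, and that on Hsph1 was lost without control library 2 or 3, which took the members called lower from 7 to 6; over the fits that leave out a library the number ran from 6 to 7, and 0 were higher throughout. Hspa1b ranged from -2.79 to -2.10 on the log2 scale and Dnajb1 from -1.23 to -1.06 in those fits. The number of all genes called lower ran from 1676 to 3241 and of those called higher from 1770 to 3236 when a library was left out, the fewest without a control library and the most without L-DL KD replicate 1; the cause was not tested. Other genes of the chaperone lists called higher ran from 4 (without L-DL KD replicate 2) to 13 (without L-DL KD replicate 1), and Bag3 and Hspa9 passed without L-DL KD replicate 1 (adjusted p = 0.0177 for both). Genes that did not pass and lay near 0 turned sign when 1 library was left out: Hsf1 ran from -0.0512 to 0.0462, Hnrnpdl from -0.1268 to 0.1497, Cryab from -0.0246 to 0.1101, Hsf2 from -0.0146 to 0.1264 and Trap1 from -0.0038 to 0.0341. The call on Lonp1 was lost in 11 of 12 alternatives. Library size scaling moved the median of all genes to 0.0376 and the calls to 2392 lower and 3052 higher, and DESeq2 called 2724 lower and 2801 higher. Same-numbered libraries did not deviate together (correlations 0.054, 0.127 and -0.107; not every library correlated best with its own number), so the numbers were not taken to pair mice; with a replicate block 2324 genes were lower and 2311 higher, the same 7 members were lower, and Hspb3 no longer passed (adjusted p = 0.0573). It was also lost without control replicate 3 (0.0621) and could not be tested in 4 of the 12 alternatives, those with a mean CPM of at least 1 or without an L-DL KD library. No paired analysis was possible for the splicing table because its values carry no replicate numbers. Depth limits the Hsph1 exon and Hspb3, which rest on few reads.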
